A study of Mus musculus with 12 samples.

Results

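Transcript levels of 8 inhibitory receptors (Pdcd1, Ctla4, Btla, Lag3, Havcr2, Tigit, Cd160 and Cd101) and of 2 related nuclear factors (Tox and Tox2) were examined in mouse CD8+ T cells. The genes were found by their symbols in the first column of the deposited count table, which listed 55291 symbols, and all 10 had counts. The mice were male and wild-type, their spleens and lymph nodes gave the cells, and RNA from whole populations was sequenced after depletion of ribosomal RNA. There were 4 groups of 3 libraries, named here rat tail collagen, bovine collagen, media and naive, and libraries are numbered 1 to 3 within a group. Cells of the first 3 groups shared the same history, with 2 days of activation by plate-bound anti-CD3 and soluble CD28, 1 day in recombinant mouse IL-2, and a last 24 h, from day 3 to day 4, in the final culture. The final culture was a gel of rat tail collagen (RatCol, 2 mg/mL), a gel of bovine collagen (Nutragen, 2 mg/mL) or media without collagen. Naive cells were a share of the isolated cells lysed at once, on day 0. The series title places these cultures in a study of how T cells sense mechanical cues and take on a tissue-resident memory program. The 2 gels were of different products, and the labels give no stiffness for them.

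Inhibitory receptors are surface proteins that dampen signals from the T cell receptor and from the costimulatory receptor CD28, many of them through cytoplasmic tyrosine motifs that recruit phosphatases. PD-1 (Pdcd1), CTLA-4, LAG-3, TIM-3 (Havcr2) and TIGIT are gained after activation, fade when antigen is cleared, and stay high on exhausted CD8+ T cells in chronic infection and tumours. TOX is a DNA-binding protein of the HMG-box family that is needed for the exhausted state, and BTLA is known for its presence on resting lymphocytes.

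The genes lie on several chromosomes of GRCm38 in the GENCODE M21 annotation. Pdcd1 (chr1:94038305-94052553, minus strand) and Ctla4 (chr1:60887000-60915832, plus strand) are on chromosome 1, with Cd28 114 kb and Icos 62.1 kb from Ctla4. Btla (chr16:45224315-45257670, plus) and Tigit (chr16:43648867-43664146, minus) are on chromosome 16, and Cd160 (chr3:96798763-96829351, minus) and Cd101 (chr3:100993529-101029556, minus) on chromosome 3. Lag3 lies at chr6:124904361-124911705 (minus), Havcr2 at chr11:46454935-46481255 (plus), Tox at chr4:6686353-6991557 (minus) and Tox2 at chr2:163203125-163324170 (plus). Exons of Cd160 overlap those of Pdzk1 on the opposite strand, and Tox overlaps Gm11802 on the opposite strand. The strand setting of the counting was not given in the sources used here, but Pdzk1 held 118 counts over all libraries, against 9741 for Cd160, and Gm11802 held 1, against 11700 for Tox.

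Promoter sequence is shown for 4 of the receptors that the 2 comparisons with media set apart. Those of Cd160 and Cd101, also lower in rat tail collagen against media, are not printed. In rat tail collagen against media Pdcd1 and Havcr2 were higher and Btla was lower, and Ctla4 stood on opposite sides of media in the 2 gels. The sequences are those of RefSeq on GRCm38.p6, the bases upstream of its annotated start, written 5′ to 3′ on the gene's own strand. They end just before that start, except for Btla, whose RefSeq start is base 45224337 and whose printed stretch ends earlier, where the first GENCODE exon begins. They span chr1:94052554-94052803 (minus, Pdcd1), chr1:60908775-60909024 (plus, Ctla4), chr11:46454681-46454930 (plus, Havcr2) and chr16:45224087-45224314 (plus, Btla). Capitals mark matches, on either strand, to the NFAT core GGAAA, to the AP-1 motif TGANTCA and to the RUNX motif TGTGGT.
Pdcd1: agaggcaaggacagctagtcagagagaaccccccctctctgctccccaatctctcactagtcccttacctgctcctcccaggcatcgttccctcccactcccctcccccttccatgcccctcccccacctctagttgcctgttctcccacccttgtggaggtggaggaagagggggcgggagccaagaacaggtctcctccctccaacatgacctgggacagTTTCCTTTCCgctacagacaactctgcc
Ctla4: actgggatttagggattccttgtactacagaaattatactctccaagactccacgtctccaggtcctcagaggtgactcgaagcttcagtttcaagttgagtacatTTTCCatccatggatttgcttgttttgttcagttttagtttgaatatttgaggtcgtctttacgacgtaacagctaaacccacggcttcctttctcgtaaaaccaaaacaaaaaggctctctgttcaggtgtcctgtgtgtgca
Havcr2: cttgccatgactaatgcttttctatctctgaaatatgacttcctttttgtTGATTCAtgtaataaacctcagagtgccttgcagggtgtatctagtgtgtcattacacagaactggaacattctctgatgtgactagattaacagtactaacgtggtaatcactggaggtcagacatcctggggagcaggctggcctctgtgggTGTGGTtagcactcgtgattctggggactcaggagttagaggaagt
Btla: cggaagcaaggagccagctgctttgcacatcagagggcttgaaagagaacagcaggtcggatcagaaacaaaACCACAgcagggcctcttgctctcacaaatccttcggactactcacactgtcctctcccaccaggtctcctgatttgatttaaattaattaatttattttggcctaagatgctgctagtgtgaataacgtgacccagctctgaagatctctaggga
The Pdcd1 window held 2 adjacent NFAT cores, whose first bases lie 28 and 23 bases upstream of the start, and the Ctla4 window held 1, 144 bases upstream. The Havcr2 window held an AP-1 motif 200 bases and a RUNX motif 46 bases upstream, and the Btla window held a RUNX motif 178 bases upstream of its RefSeq start. In windows of 250 bases, 55.6% of 32851 RefSeq mouse promoters held the NFAT core, 6.75% the AP-1 motif and 14.0% the RUNX motif, and the first 4 letters of the NFAT core are also the core of ETS factor sites. These matches describe letters only, and no binding was measured. Promoter sequence was matched for 8 of the 10 genes, all but Lag3 and Tox. Among those not printed, Cd160 and Cd101 had NFAT cores and RUNX motifs upstream. So did Tigit, which was not called between rat tail collagen and media, and Tox2 had the NFAT core. Whether any match bears on the levels was not tested.

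The 12 libraries held between 28483064 and 53138362 counts. Ribosomal RNA genes took 10.96%, 5.03% and 13.2% of the counts in rat tail collagen libraries 1, 2 and 3, 6.41%, 11.9% and 5.50% in bovine collagen, 4.45% to 4.72% in media and 3.96% to 5.67% in naive libraries. The summed level of 8 CD8+ T cell markers, each at 1 CPM (counts scaled to a common library size) or more in every group, was 2562 to 2772 CPM in rat tail collagen, 3568 to 3823 CPM in bovine collagen, 3584 to 3913 CPM in media and 4380 to 5201 CPM in naive cells. In rat tail collagen against media, Cd8a (log2 fold change -0.21), Cd8b1 (-0.17) and Cd3e (0.01) were not called. Trac (-0.97), Cd2 (-1.44), Cd3g (-0.66), Cd3d (-0.57) and Lck (-0.54) were lower. The summed level of 5 markers of CD4+ and regulatory T cells, 4 of them at 1 CPM or more at day 4, was 74.3 to 88.9, 39.3 to 44.9, 36.4 to 45.2 and 14.6 to 27.0 CPM in the same 4 groups. Of these markers, Zbtb7b averaged 53.8, 28.5, 26.5 and 6.44 CPM, while Cd4 itself averaged 2.39, 2.42, 2.92 and 4.73 CPM. The part of the ribosomal RNA share and of these markers in the results was not tested. In bulk RNA, fewer cells that express a gene and less RNA per cell cannot be told apart, and p-values measure only the spread between these libraries. The labels give 3 mice per group and do not tie a library to a mouse, nor a library number to the same mouse across groups.

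In rat tail collagen, Pdcd1, Havcr2, Tox and Tox2 were higher than in media, and Ctla4, Btla, Cd160 and Cd101 were lower. The changes ran from 5.75-fold lower for Cd160 to 3.13-fold higher for Havcr2 on the ratio of mean CPM. Lag3 and Tigit did not pass the test. Thus 4 of the 10 genes rose and 4 fell (edgeR's quasi-likelihood test with Benjamini-Hochberg adjustment over all 19392 genes tested, adjusted p under 0.05, n = 3 libraries per group), where 58.4% of all genes passed, 29.7% higher and 28.7% lower. The libraries of the 2 groups did not overlap for 8 of the 10 genes, against 65.1% of all genes. With so large a share of genes called, the count of 8 called in 10 by itself says little about these genes. The median absolute log2 fold change was 1.37 for the 10 genes and 0.47 for all genes tested. Between bovine collagen and media none of the 10 genes passed in edgeR, where 0.0206% of all genes, 4 in number and all higher, did, although 2 of the 10 had an unadjusted p under 0.05 and DESeq2 called 1, Ctla4. Between rat tail and bovine collagen 3 genes rose (Pdcd1, Tox and Tox2) and 4 fell (Ctla4, Btla, Cd160 and Cd101), where 54.7% of all genes passed, 28.4% higher and 26.4% lower, and libraries did not overlap for 7 of the 10 genes, against 63.9% of all genes. Of all calls, 50.9% were higher in rat tail collagen against media and 51.8% against bovine collagen, but 34.7% and 33.9% with offsets for GC content and length, and 66.3% against bovine collagen with scaling by library totals. The comparisons with rat tail collagen share its 3 libraries, so their results are not independent of each other.

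**Figure D1:**
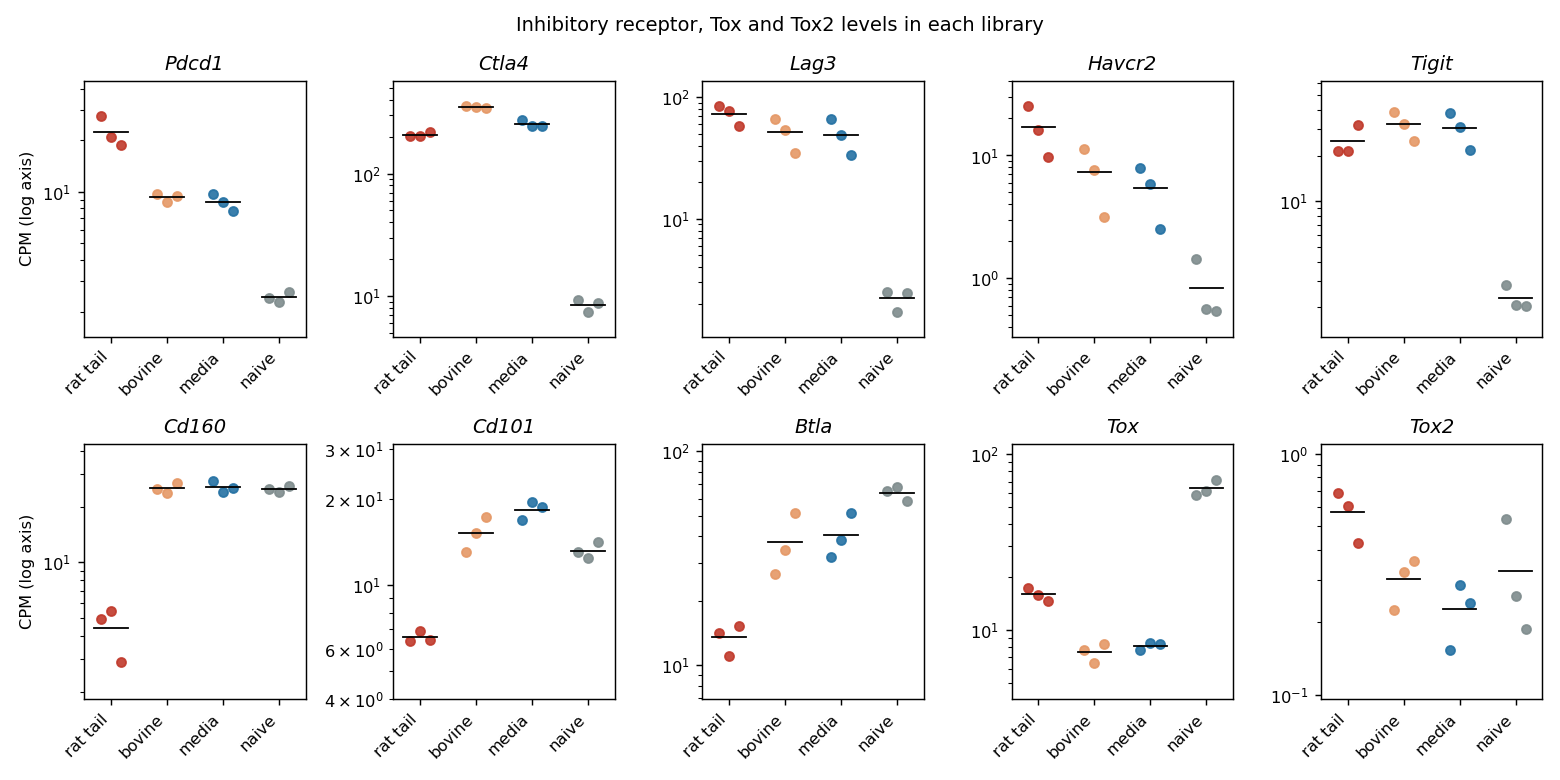
Level of each of the 10 genes in the 12 libraries, in CPM on a log axis, with 1 panel per gene. Points are libraries and bars are means of 3 libraries in rat tail collagen, bovine collagen, media and naive cells. Cd160 was under 6 CPM in the 3 rat tail collagen libraries and over 23 CPM in the other 9, and Tox was highest in naive cells.

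PD-1, the receptor for PD-L1 and PD-L2 that recruits the phosphatase SHP-2 to the T cell receptor and CD28, was higher in the 3 rat tail collagen libraries than in any other library. Pdcd1 stood at 27.8, 20.8 and 18.8 CPM in rat tail collagen, at 9.74, 8.68 and 9.44 CPM in bovine collagen, at 9.67, 8.73 and 7.78 CPM in media and at 2.39, 2.28 and 2.59 CPM in naive cells. The lowest rat tail collagen library was well above the highest bovine collagen library, bovine collagen and media overlapped, and all 9 day 4 libraries were above the naive ones. Pdcd1 was 2.57 times as high in rat tail collagen as in media on mean CPM, a log2 fold change of 1.38 ± 0.143 (SE, 95% interval 1.06 to 1.69, adjusted p = 8.81e-06 by edgeR's quasi-likelihood test), and the log2 fold change was 1.28 ± 0.145 against bovine collagen (SE, adjusted p = 2.00e-05). Across 19 alternative settings the log2 fold change against media ran from 0.97 to 1.49, and the call was the same in each.

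CTLA-4, which competes with CD28 for CD80 and CD86, was the most abundant of the receptor transcripts per kb of exon at day 4, and it moved in the other direction. Ctla4 stood at 203, 201 and 217 CPM in rat tail collagen, at 355, 346 and 345 CPM in bovine collagen, at 273, 246 and 242 CPM in media and at 9.22, 7.49 and 8.76 CPM in naive cells. No 2 groups overlapped, with bovine collagen highest, then media, then rat tail collagen. Ctla4 fell by 0.28 ± 0.0729 on the log2 scale in rat tail collagen against media (SE, 95% interval -0.44 to -0.12, adjusted p = 0.00672) and by 0.74 ± 0.0732 against bovine collagen (SE, adjusted p = 6.90e-06), both by edgeR's quasi-likelihood test. The smaller of these 2 calls was lost with scaling by library totals (log2 fold change -0.22, adjusted p = 0.0950). It was also lost without the 3 libraries of highest ribosomal RNA share (-0.33), a setting that leaves 1 rat tail collagen library. In bovine collagen, Ctla4 was 1.37 times the media level, with a log2 fold change of 0.47 ± 0.0729 (SE, 95% interval 0.31 to 0.63). Its unadjusted p was 4.58e-05 and its adjusted p 0.0888, so it did not pass here. It passed with DESeq2 (log2 fold change 0.47, adjusted p = 7.04e-07) and in edgeR with no filter on low counts (0.46, adjusted p = 0.00188).

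BTLA, a receptor of the same immunoglobulin superfamily that binds HVEM (Tnfrsf14) and is carried by resting lymphocytes, was highest in naive cells. Btla stood at 14.1, 11.1 and 15.3 CPM in rat tail collagen, at 26.8, 34.6 and 51.7 CPM in bovine collagen, at 32.1, 38.3 and 51.3 CPM in media and at 65.2, 67.8 and 58.4 CPM in naive cells. The rat tail collagen libraries were below all others, bovine collagen and media overlapped, and naive libraries were above all others. Btla fell by 1.58 ± 0.251 on the log2 scale in rat tail collagen against media (SE, 95% interval -2.14 to -1.02, adjusted p = 0.000367) and by 1.48 against bovine collagen (adjusted p = 0.000623), by edgeR's quasi-likelihood test. Its library 3 was the highest in each of the 3 day 4 groups. Over 19 alternative settings the log2 fold change against media ran from -1.87 to -1.38, with the same call in each. The ratio of Pdcd1 to Btla, per kb of exon, was 2.98 ± 0.713 in rat tail collagen, 0.468 ± 0.161 in bovine collagen, 0.399 ± 0.131 in media and 0.0673 ± 0.00979 in naive cells (SD, n = 3 libraries each).

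LAG-3 binds MHC class II and shares its ancestry with CD4. Lag3 stood at 84.9, 76.4 and 58.3 CPM in rat tail collagen, at 66.7, 53.7 and 34.6 CPM in bovine collagen, at 65.7, 49.1 and 33.2 CPM in media and at 2.52, 1.72 and 2.43 CPM in naive cells. The 3 day 4 groups overlapped, and all were well above naive cells. The log2 fold change between rat tail collagen and media was 0.59 ± 0.291 (SE, 95% interval -0.08 to 1.25, adjusted p = 0.116 by edgeR's quasi-likelihood test), so a difference of up to 1.25 in favour of rat tail collagen lies within the interval. With offsets for GC content and length, chosen after seeing the data, its sign turned (-0.12, adjusted p = 0.740), again without a call. The call changed in 1 of 19 alternative settings, edgeR with the library number as a block (0.62, adjusted p = 9.62e-05). The labels do not say that libraries of the same number are paired.

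TIM-3, which binds galectin-9, HMGB1, CEACAM1 and phosphatidylserine, was the least abundant receptor in naive cells per kb of exon. Havcr2 stood at 25.2, 16.1 and 9.75 CPM in rat tail collagen, at 11.4, 7.67 and 3.15 CPM in bovine collagen, at 7.91, 5.87 and 2.51 CPM in media and at 1.42, 0.565 and 0.537 CPM in naive cells. The lowest rat tail collagen library was above the highest of media and within the range of bovine collagen. For Havcr2 and for Lag3 alike, library 1 was the highest in each of the 4 groups, and library 3 the lowest in each day 4 group. Havcr2 rose in rat tail collagen against media (log2 fold change 1.66 ± 0.576, SE, 95% interval 0.32 to 3.00, adjusted p = 0.0384 by edgeR's quasi-likelihood test) and missed the threshold against bovine collagen (95% interval -0.12 to 2.55, adjusted p = 0.111). Against bovine collagen it passed with limma's voom (1.33, adjusted p = 0.0417) and in edgeR with the library number as a block (1.27, adjusted p = 1.03e-05). The labels do not say that libraries of the same number are paired. Leaving out 1 library often ended the call against media (adjusted p 0.0573, 0.0624 and 0.113 without media libraries 1, 2 and 3). The adjusted p was 0.0914 and 0.0635 without rat tail collagen libraries 1 and 2. Each of these fits has only 2 libraries in 1 of the 2 groups. The call was also lost with library totals, no filter, or GC and length offsets (adjusted p 0.0619, 0.105 and 0.0680). It was lost too without the 3 libraries of highest ribosomal RNA share (1.57), which leaves 1 rat tail collagen library. The log2 fold change of Havcr2 stayed between 1.27 and 2.04 over the 19 settings.

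TIGIT competes with the activating receptor CD226 for CD155 (Pvr) and CD112 (Nectin2). Tigit stood at 21.7, 21.5 and 32.1 CPM in rat tail collagen, at 38.9, 32.6 and 24.9 CPM in bovine collagen, at 38.1, 31.0 and 22.0 CPM in media and at 2.80, 2.08 and 2.06 CPM in naive cells. The 3 day 4 groups overlapped, with library 3 the highest in rat tail collagen and the lowest in bovine collagen and in media. The log2 fold change of rat tail collagen against media was -0.26 ± 0.229 (SE, 95% interval -0.77 to 0.25, adjusted p = 0.355 by edgeR's quasi-likelihood test). Rat tail collagen library 3 was also the one with the most Foxp3, the factor that marks regulatory T cells, at 19.2 CPM against 3.58 and 4.04 CPM in libraries 1 and 2 of its group. Library 3 also had the most Foxp3 in bovine collagen (4.43 CPM) and in media (4.31 CPM), where it had the least Tigit. Whether Foxp3 bears on Tigit was not tested.

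CD160, a glycolipid-anchored receptor for HVEM found on cytotoxic lymphocytes, had the largest change among the 10 genes between rat tail collagen and media. Cd160 stood at 4.95, 5.48 and 2.91 CPM in rat tail collagen, at 24.9, 23.7 and 26.9 CPM in bovine collagen, at 27.4, 24.0 and 25.3 CPM in media and at 24.9, 23.9 and 26.0 CPM in naive cells. Bovine collagen, media and naive libraries lay in the same range, and the rat tail collagen libraries lay far below it. Cd160 fell by 2.49 ± 0.173 on the log2 scale against media (SE, 95% interval -2.87 to -2.11, adjusted p = 4.14e-07), by 2.48 against bovine collagen (adjusted p = 5.30e-07) and by 2.51 against naive cells (adjusted p = 4.44e-06), by edgeR's quasi-likelihood test. Its log2 fold change between media and naive cells was 0.03 (95% interval -0.15 to 0.22). In absolute size its change between rat tail collagen and media exceeded that of 93.5% of the genes tested.

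CD101, a cell-surface immunoglobulin protein that separates terminally exhausted from earlier exhausted CD8+ T cells in mice, also fell. Cd101 stood at 6.38, 6.92 and 6.45 CPM in rat tail collagen, at 13.0, 15.2 and 17.3 CPM in bovine collagen, at 16.9, 19.5 and 18.8 CPM in media and at 13.0, 12.4 and 14.2 CPM in naive cells. The rat tail collagen libraries were below all others, and bovine collagen overlapped both media and naive cells. Cd101 fell by 1.46 ± 0.114 on the log2 scale in rat tail collagen against media (SE, 95% interval -1.71 to -1.21, adjusted p = 1.02e-06) and by 1.20 against bovine collagen (adjusted p = 5.88e-06), by edgeR's quasi-likelihood test. For both Cd160 and Cd101 the call was the same in all 19 alternative settings of both comparisons.

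TOX, the factor tied to the exhausted state and, in the thymus, to the development of CD4+ T cells, was most abundant in naive cells and, at day 4, in rat tail collagen. Tox stood at 17.3, 15.7 and 14.7 CPM in rat tail collagen, at 7.71, 6.42 and 8.32 CPM in bovine collagen, at 7.62, 8.42 and 8.30 CPM in media and at 58.3, 61.9 and 71.8 CPM in naive cells. Rat tail collagen libraries lay between the naive libraries and those of the other day 4 groups, which overlapped each other. Tox rose in rat tail collagen by a log2 fold change of 0.99 ± 0.113 against media (SE, 95% interval 0.74 to 1.24, adjusted p = 1.93e-05) and of 1.09 against bovine collagen (adjusted p = 1.22e-05), by edgeR's quasi-likelihood test, with the same call in all 19 alternative settings. It remained 4.03-fold below the naive level there.

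Tox2, a close relative of Tox, was scarce, with 74, 30, 31 and 39 counts in all in the rat tail collagen, bovine collagen, media and naive groups. It stood at 0.686, 0.609 and 0.424 CPM in rat tail collagen, at 0.225, 0.323 and 0.358 CPM in bovine collagen, at 0.153, 0.285 and 0.240 CPM in media and at 0.534, 0.257 and 0.187 CPM in naive cells. The rat tail collagen libraries were above those of the other day 4 groups, and the naive libraries overlapped all 3 groups. The log2 fold change was 1.37 ± 0.327 against media (SE, 95% interval 0.65 to 2.09, adjusted p = 0.00371 by edgeR's quasi-likelihood test) and 0.93 against bovine collagen (adjusted p = 0.0330). GC and length offsets ended the first call (0.62, adjusted p = 0.135). So did leaving out the 3 libraries of highest ribosomal RNA share, which leaves 1 rat tail collagen library, at a log2 fold change of 1.44. The second call was lost in 9 alternatives, among them DESeq2 (adjusted p = 0.0877), no filter on low counts (0.0764) and leaving out bovine collagen library 1 or 2 or rat tail collagen library 1 or 2 (0.130, 0.0660, 0.0997 and 0.0971).

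**Figure D2:**
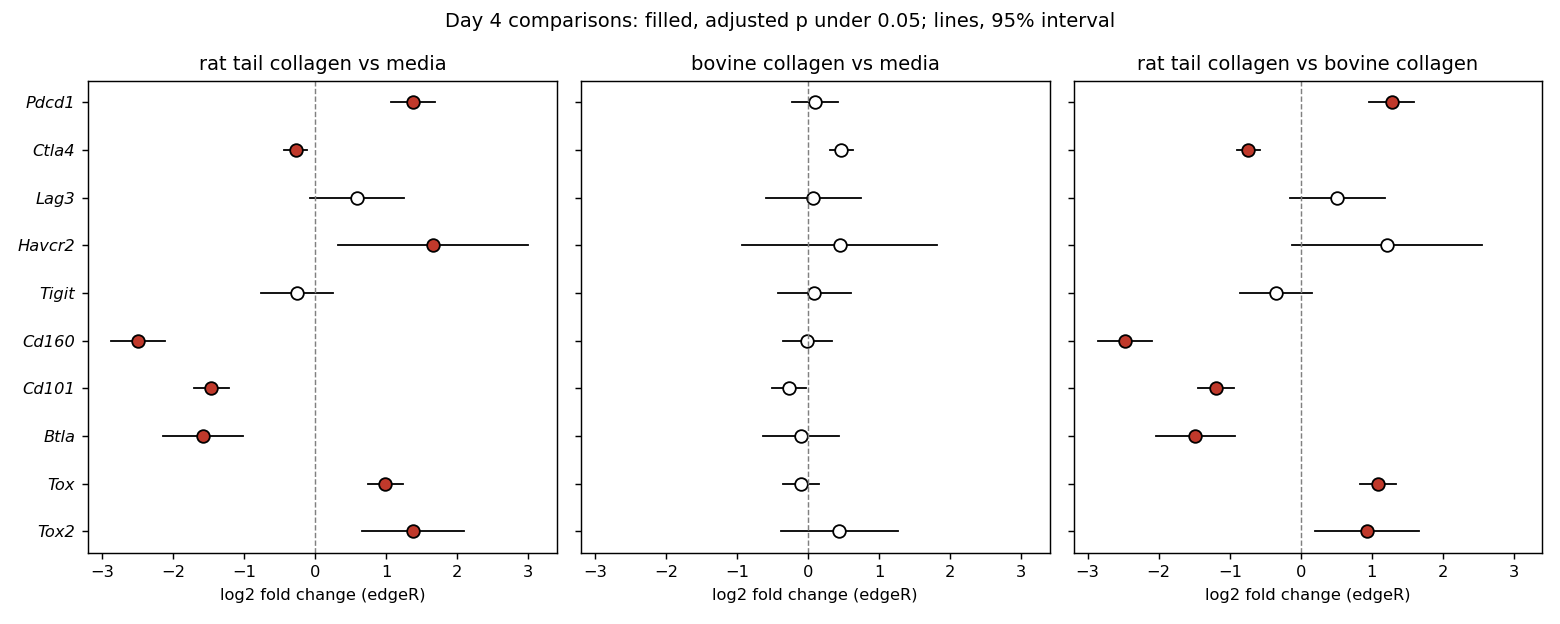
Log2 fold change of each gene in the 3 comparisons between day 4 groups, with the 95% interval from edgeR, n = 3 libraries per group. Filled points have an adjusted p under 0.05. Cd160 lies farthest from 0, at -2.49 between rat tail collagen and media. Every point is open for bovine collagen against media.

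In bovine collagen against media, 6 of the 10 genes had log2 fold changes between -0.10 and 0.10. Apart from Ctla4, described above, Cd101 had a log2 fold change of -0.27 (95% interval -0.51 to -0.02, unadjusted p = 0.0335, adjusted p = 1), and these were the 2 genes with an unadjusted p under 0.05. The 6 small values were 0.10 for Pdcd1, 0.07 for Lag3, 0.09 for Tigit, -0.01 for Cd160, -0.09 for Btla and -0.10 for Tox. Wide intervals left Havcr2 (0.44, 95% interval -0.92 to 1.81) and Tox2 (0.44, 95% interval -0.38 to 1.26) poorly determined. Ctla4 was the single gene of the 10 whose bovine collagen and media libraries did not overlap, against 9.24% of all genes tested. The median absolute log2 fold change was 0.10 for the 10 genes and 0.10 for all genes.

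In media against naive cells, 6 of the 10 genes were higher and 2 lower, where 60.8% of all genes passed, 31.6% higher and 29.2% lower (edgeR's quasi-likelihood test with Benjamini-Hochberg adjustment, 18610 genes tested). Ctla4 was 29.9 times the naive level (log2 fold change 4.90 ± 0.111, SE, adjusted p = 1.96e-09), Lag3 22.2 times (4.47, adjusted p = 3.16e-06) and Tigit 13.1 times (3.71, adjusted p = 1.35e-06). Havcr2 (2.69, adjusted p = 0.00125), Pdcd1 (1.84, adjusted p = 6.39e-06) and Cd101 (0.47, adjusted p = 0.00219) rose by less. Tox fell 7.89-fold (-2.98, adjusted p = 1.84e-08) and Btla 1.57-fold (-0.66, adjusted p = 0.00425). Cd160 (adjusted p = 0.753) and Tox2 (adjusted p = 0.346) did not pass. The libraries of media and naive cells did not overlap for 8 of the 10 genes, against 67.6% of all genes. The median absolute log2 fold change was 2.27 for the 10 genes and 0.54 for all genes.

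In bovine collagen against naive cells, 5 of the 10 genes rose and 2 fell, where 63.3% of all genes passed, 31.1% higher and 32.2% lower, and libraries did not overlap for 7 of the 10 genes, against 69.2% of all genes. Ctla4 was 41.1 times the naive level (log2 fold change 5.34), and Lag3 (4.52), Tigit (3.78), Havcr2 (3.12) and Pdcd1 (1.92) were also higher. Tox (-3.10) and Btla (-0.77, adjusted p = 0.0148) were lower, and Cd101 (0.19, adjusted p = 0.190), Cd160 (0.00) and Tox2 (-0.12) did not pass. The Btla call was lost without bovine collagen library 2 (-0.68, adjusted p = 0.0590), and Cd101 passed without bovine collagen library 1 (0.32, adjusted p = 0.0301), all by edgeR's quasi-likelihood test.

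In rat tail collagen against naive cells, 5 genes rose and 4 fell, where 71.9% of all genes passed, 36.5% higher and 35.4% lower, and libraries did not overlap for 9 of the 10 genes, against 76% of all genes. Lag3 was 32.9 times the naive level (95% interval of the log2 fold change 4.56 to 5.44), Ctla4 24.4 times (log2 fold change 4.57), Havcr2 20.2 times (4.30) and Pdcd1 9.27 times (3.17), and Tigit was also higher (3.41). Cd160 (-2.51), Btla (-2.29), Tox (-2.05) and Cd101 (-1.04) were lower. Tox2 did not pass (0.79, adjusted p = 0.106 by edgeR's quasi-likelihood test), although it did without naive library 1 (1.33, adjusted p = 0.0127). Cd160 and Cd101 thus stood below the naive level in rat tail collagen, whereas in media Cd160 was close to it and Cd101 above it.

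The make-up of the receptor transcripts, per kb of exon, differed between groups. The 8 receptors summed to 176 ± 6.46 CPM per kb in rat tail collagen, 242 ± 14.4 in bovine collagen, 199 ± 22.0 in media and 41.0 ± 1.33 in naive cells (SD, n = 3 libraries each). Ctla4 made up 50.4%, 62.0%, 54.9% and 8.89% of the sum in these groups, in the same order. Lag3 made up 19.7% in rat tail collagen, 10.03% in bovine collagen, 11.6% in media and 2.57% in naive cells, and Pdcd1 6.58%, 1.99%, 2.27% and 3.07%. In naive cells Btla (45.9%), Cd160 (23.1%) and Cd101 (9.69%) held most of the sum. In rat tail collagen these 3 had shares of 2.24%, 0.957% and 1.12%, against 6.15%, 4.88% and 2.81% in media. The shares of the groups were described and not tested.

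**Figure D3:**
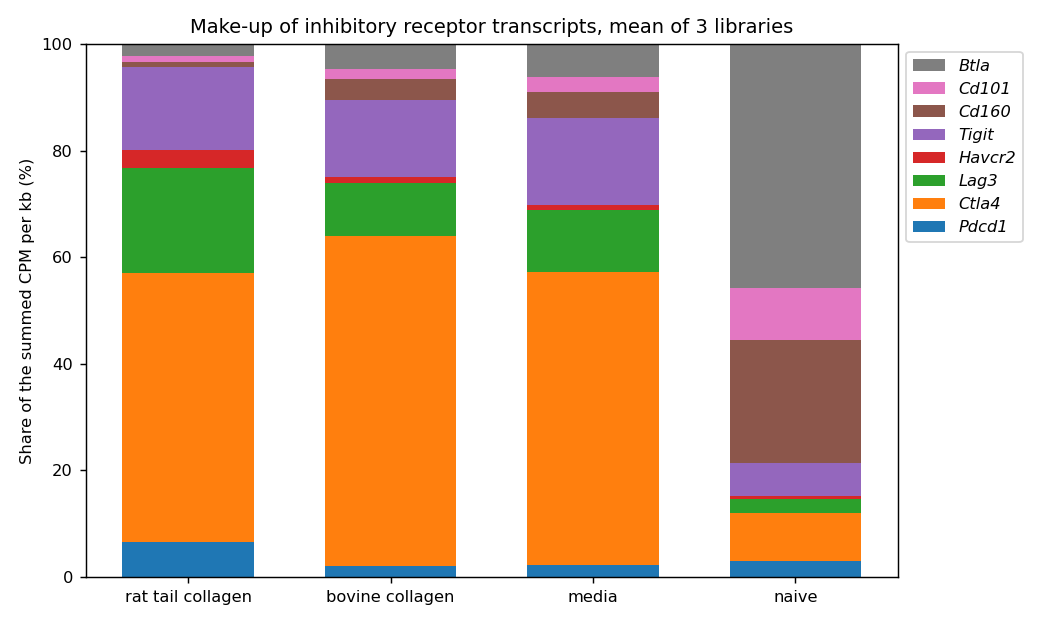
Share of each receptor in the summed CPM per kb of exon of the 8 receptors, in percent, as means of 3 libraries in rat tail collagen, bovine collagen, media and naive cells. Ctla4 fills 50.4% to 62.0% of the day 4 bars and 8.89% of the naive bar, in which Btla is the largest part.

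Ligands of the receptors were themselves measured in these cells, from a list of 14 genes, 12 of which could be tested in rat tail collagen against media, where 5 were higher, 4 lower and 3 did not pass. In that comparison 29.7% of all genes were higher and 28.7% lower, and list counts near these shares do not set a list apart. Cd80, a ligand of CTLA-4 and CD28, averaged 118 ± 2.33 CPM in rat tail collagen, 17.6 ± 1.73 CPM in bovine collagen and 15.7 ± 1.82 CPM in media (SD, n = 3 libraries each), and was nearly absent from naive cells at 0.411 CPM. Its log2 fold change was 2.93 against media (adjusted p = 2.84e-09 by edgeR's quasi-likelihood test) and 2.75 against bovine collagen. Cd86, the other ligand of both receptors, moved the opposite way, at 1.95 ± 0.204 CPM in rat tail collagen, 5.88 CPM in bovine collagen, 7.08 ± 0.465 CPM in media and 21.6 CPM in naive cells (log2 fold change of rat tail collagen against media -1.84, adjusted p = 7.29e-07). Cd274, which encodes PD-L1, averaged 17.6 ± 1.08 CPM in rat tail collagen, 14.4 CPM in bovine collagen, 18.5 ± 3.54 CPM in media and 39.1 CPM in naive cells. Neither it (-0.05, adjusted p = 0.748) nor Pdcd1lg2, which encodes PD-L2 (0.50, adjusted p = 0.263), passed against media.

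Of the TIM-3 ligands, Ceacam1 rose (7.77 ± 0.616 CPM in rat tail collagen, 0.954 ± 0.112 CPM in media, log2 fold change 3.04), while Hmgb1 fell (65.6 ± 3.04 and 132 ± 1.53 CPM, -0.996) and Lgals9 fell slightly (-0.21, adjusted p = 0.0155), a call lost without rat tail collagen library 1 (adjusted p = 0.0691). Of the TIGIT ligands, Nectin2 rose (5.35 ± 0.452 CPM in rat tail collagen, 0.477 CPM in media, 3.46) and Nectin3 rose (2.18 and 0.816 CPM, 1.41). Leaving out the 3 libraries of highest ribosomal RNA share ended the Nectin3 call, with 1 rat tail collagen library left. Pvr did not pass (adjusted p = 0.290), but was lower with GC and length offsets (-0.37, adjusted p = 0.00217). Tnfrsf14, the ligand of BTLA and CD160, fell together with both of its receptors (20.8 ± 0.981 CPM in rat tail collagen, 32.1 ± 3.13 CPM in media, -0.61, adjusted p = 0.000936 by edgeR's quasi-likelihood test). Its call was lost without the same 3 libraries, again with 1 rat tail collagen library left.

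**Figure D4:**
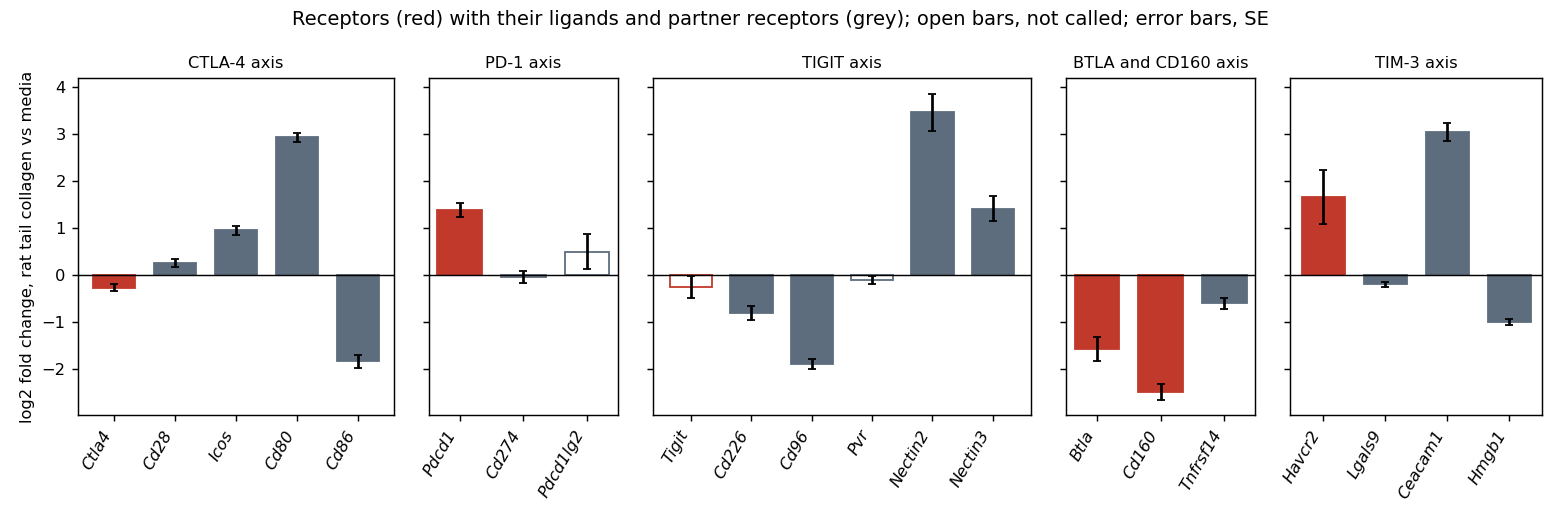
Bars give the log2 fold change between rat tail collagen and media of the receptors (red) and of their ligands and partners (grey), with SE from edgeR, n = 3 libraries per group. Open bars did not pass an adjusted p of 0.05. Cd80 and Nectin2 lie at 2.93 and 3.46, and Cd86 at -1.84.

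Of 11 costimulatory receptors and partners, 3 were higher, 6 lower and 2 did not pass in rat tail collagen against media, where 29.7% of all genes were higher and 28.7% lower. Cd28, the activating counterpart of CTLA-4, averaged 423 ± 43.0 CPM in rat tail collagen, 413 CPM in bovine collagen, 361 ± 5.75 CPM in media and 109.7 CPM in naive cells, with a log2 fold change of 0.25 against media (adjusted p = 0.0285 by edgeR's quasi-likelihood test), lost with no filter on low counts (adjusted p = 0.0962) and without media library 2 or 3 or rat tail collagen library 1 or 2 (adjusted p 0.0859, 0.0734, 0.113 and 0.0709). Icos, a costimulator in the same gene cluster, rose (202 ± 21.6 CPM in rat tail collagen, 113 CPM in bovine collagen, 106 ± 8.45 CPM in media, 0.95 against media). The Ctla4 to Cd28 ratio, per kb of exon, was 1.30 ± 0.186 in rat tail collagen, 2.22 ± 0.184 in bovine collagen, 1.85 ± 0.0908 in media and 0.207 ± 0.0406 in naive cells (SD, n = 3 libraries each), and the ranges of rat tail collagen and media did not overlap. Tnfrsf4, which encodes the costimulator OX40, rose (38.0 ± 3.31 CPM in rat tail collagen, 6.08 CPM in bovine collagen, 5.47 ± 0.404 CPM in media, 2.81). Cd226, the counterpart of TIGIT, fell (86.0 ± 19.5, 160 and 152 ± 12.9 CPM in the same groups, -0.81, adjusted p = 0.000673), as did Cd96, a further nectin-family receptor (66.1 ± 4.77, 236 and 249.9 ± 21.8 CPM, -1.90). The adhesion receptor Cd2 (-1.44) and the TNF-receptor family member Cd27 (-1.36) were lower too.

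A list of 15 signalling genes linked to inhibitory receptors, not all of them inhibitory, had 12 lower in rat tail collagen than in media, 2 higher and 1 not called. Of all genes, 28.7% were lower and 29.7% higher there. The median log2 fold change was -0.62 for the list, against -0.01 over all genes. Pag1, a membrane adaptor that recruits the kinase Csk, fell by 1.66, and Ptpn2, a tyrosine phosphatase, fell by 1.16. Ubash3a, a suppressor of T cell receptor signalling, fell by 1.15, and Cblb, a ubiquitin ligase that limits activation without CD28, fell by 0.27 (adjusted p = 0.0126), a call lost with library totals. Grap2 also fell (by 1.28), although its product is known as an adaptor that promotes T cell receptor signals. Of the 2 higher genes, 1 was Ptpn11, which encodes SHP-2 (0.19, adjusted p = 0.0284 by edgeR's quasi-likelihood test). With GC and length offsets neither of the 2 higher genes was called. The list held 1 higher gene, against 2, with library totals and with no filter on low counts. The same count of 1 was reached without media library 2 or 3 or rat tail collagen library 1 or 2.

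Of 12 other inhibitory receptors and surface enzymes, 10 could be tested in rat tail collagen against media, and 2 were higher, 6 lower and 2 not called, beside 29.7% of all genes higher and 28.7% lower. Lair1, a receptor whose ligands are collagens, was at 4.20 CPM in rat tail collagen, 23.7 CPM in bovine collagen, 25.1 CPM in media and 12.5 CPM in naive cells, a log2 fold change of -2.55 against media and -2.47 against bovine collagen. Entpd1, the ectoenzyme CD39 found on exhausted and resident CD8+ T cells, rose (45.5 ± 6.49 CPM in rat tail collagen, 10.5 CPM in bovine collagen, 11.8 ± 1.42 CPM in media, 1.96). Cd5 fell by 1.08 and Pecam1 by 0.97, both being receptors that temper antigen receptor signals. Adora2a, an adenosine receptor, had a log2 fold change of 0.30 (adjusted p = 0.0489), which turned to -0.46 (adjusted p = 0.00469) with GC and length offsets. Its call was also lost without media library 2 or 3 or rat tail collagen library 1 or 2 (adjusted p 0.115, 0.141, 0.209 and 0.107).

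Of 18 transcription factors linked to receptor expression or exhaustion, 17 could be tested in rat tail collagen against media. Of these 4 were higher, 5 lower and 8 not called, a share of calls near the 58.4% of all genes. Nr4a2 (32.0 ± 3.28 CPM in rat tail collagen, 8.85 CPM in bovine collagen, 7.20 ± 0.548 CPM in media, 2.17) and Nr4a3 (11.5, 5.10 and 5.56 CPM, 1.06) rose, both nuclear receptors induced by antigen receptor signals. Irf4, another gene induced by such signals, fell (94.9, 188 and 165 CPM, -0.78), as did Id2 (46.5, 85.5 and 101 CPM, -1.10), a partner of E proteins in effector cells. With GC and length offsets 2 of the factors were higher and 9 lower. Of 16 genes of the calcium and NFAT pathway, 15 could be tested, and 2 were higher, 9 lower and 4 not called, beside 29.7% of all genes higher and 28.7% lower. Ppp3cc and Ppp3cb, catalytic subunits of calcineurin, fell by 1.42 and 1.01, while Rcan3, a calcineurin regulator, was 0.91 higher on the log2 scale. Egr3, a target of NFAT, did not pass (0.46, adjusted p = 0.0943 by edgeR's quasi-likelihood test), but did without media library 1 (0.69, adjusted p = 0.0154). Egr2, in the same list, fell (2.58, 6.26 and 5.78 CPM in rat tail collagen, bovine collagen and media, -1.16 against media, adjusted p = 0.00593 by the same test).

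None of the genes in these 6 lists passed in bovine collagen against media, by edgeR or by DESeq2, and 2 ligands, 1 costimulatory gene and 2 transcription factors had an unadjusted p under 0.05 in edgeR. In rat tail collagen against bovine collagen, 5 ligands were higher and 4 lower, 2 costimulatory genes higher and 6 lower, 2 signalling genes higher and 11 lower, 1 other receptor higher and 6 lower, 5 transcription factors higher and 4 lower, and 3 calcium pathway genes higher and 9 lower, where 28.4% of all genes were higher and 26.4% lower. In media against naive cells, 31.6% of all genes were higher and 29.2% lower. Of 11 costimulatory genes there, 6 were higher and 1 lower, with Icos at 1.50 and Cd28 at 1.71 on the log2 scale. In the same comparison the ligands divided into 4 higher and 5 lower of 13, the signalling genes into 7 and 6 of 15, and the transcription factors into 8 and 6 of 17, and Irf4 rose by 3.61 on the log2 scale while Egr3 fell by 3.67.

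Genes whose levels followed each receptor most closely were ranked by Pearson's correlation of log2 CPM over the 12 libraries, among 11777 candidates, as a description over libraries that share the same 4 groups. Pdcd1 was closest to Rbpj (r = 0.995), the DNA-binding partner of Notch, and to Zmpste24 (r = 0.994), a protease that matures lamin A. Its next neighbour, Rbpj-ps3 (r = 0.993), is a pseudogene that may share reads with Rbpj. Ctla4 was closest to Lxn (r = 0.999) and Ticrr (r = 0.997), Lag3 to Adap1 (r = 0.999) and Ptms (r = 0.997), and Tigit to Ybx3 (r = 0.998) and Dhrs13 (r = 0.997). Cd160 was closest to Hnrnpa1 (r = 0.994) and Smim19 (r = 0.993). Havcr2 (Mt3, r = 0.988), Cd101 (Crlf2, r = 0.990), Btla (Dmbt1, r = 0.986) and Tox (Tob2, r = 0.993) had less close neighbours, and Tox2, the scarcest gene, had the loosest match (Bclaf3, r = 0.917).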

How the data were processed

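RNA from CD8+ T cells (150 ng, treated with DNase I and depleted of ribosomal RNA, per the labels' protocols) was sequenced in 12 libraries, 3 per group. The deposited table holds the authors' raw counts per gene symbol. Per the submitters' processing notes the tools included HISAT2 and featureCounts, beside SAMtools, Picard, FastQC and MultiQC, with mm10 and GRCm38 as builds; tool versions, the annotation and the strand setting were not given in the sources used here. Of 55291 symbols, 53291 matched GENCODE M21, and the unmatched ones held 2.28% of counts.

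Counts were tested in R 4.3.3 with edgeR 4.0.16 (filterByExpr with a minimum count of 10, TMM factors, robust quasi-likelihood F test, Benjamini-Hochberg adjustment over all genes tested, called at an adjusted p under 0.05). The 9 day 4 libraries shared 1 fit, and each comparison with naive cells had a fit of 6 libraries. In the day 4 fit, genes varied between libraries of a group by 12.2% (edgeR's common biological coefficient of variation). CPM values use TMM factors over 12 libraries, and CPM per kb divides by the union exon length. No 2 libraries agreed within sampling noise. The procedure was tested on simulated counts.

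The genes and lists were chosen with earlier results of these data known. From each pathway list the text names up to 4 genes with the smallest adjusted p in rat tail collagen against media and up to 2 in media against naive cells. Cd274, Pdcd1lg2, Cd226, Pvr, Nectin2, Nectin3, Lgals9, Tnfrsf14, Zbtb7b, Foxp3, Col1a1, Fn1 and Pdgfrb were added as known partners or markers after their values were seen. Ptpn11 and Egr2 were also named after their values were seen. For each of the 10 genes, up to 3 genes with the highest correlation are named, and a few results are not reported here. Alternatives were RLE factors, library totals, 2 other filters, DESeq2 1.42.0, limma 3.58.1 (voom), no robust estimation, other sets of libraries in the fit, the replicate number as a block and each library left out. After seeing the data, 3 were added, namely leaving out the 3 libraries of highest ribosomal RNA share, leaving out ribosomal RNA genes, and offsets for GC content and length.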

Additional observations from a re-analysis of the deposited data

How the results depend on the processing

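Of 1104 values of the 10 genes under an alternative, 1071 kept their side of the threshold, 25 lost and 8 gained a call, and none of the calls turned its sign, although some values that were not called did, such as Lag3 in rat tail collagen against media. Rat tail collagen against media gave 6726 calls over all genes without the 3 libraries of highest ribosomal RNA share, against 11319 with all libraries, and 2 of the 10 genes higher there and 2 with GC and length offsets, against 4. Rat tail against bovine collagen gave 5485 calls without those libraries, against 10617. Bovine collagen against media gave 4 calls over all genes, but 9 with library totals, 22 with DESeq2, 39 with no filter, 7 with the replicate block, 2 with only 6 libraries, 1 without the 3 libraries and 2 to 5 with single libraries left out, and 1 of the 10 genes higher with DESeq2 and with no filter, against 0. Bovine collagen against naive cells had 2 of the 10 genes lower, but 1 with no filter and without the 3 libraries, and 1 to 2 with single libraries left out.

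Adora2a turned to -0.46 with GC and length offsets both against media (adjusted p = 0.00469) and against bovine collagen (adjusted p = 0.00503). Library totals put the median log2 fold change of all genes at 0.15 in rat tail against bovine collagen and at -0.14 in bovine collagen against naive cells, and the offsets put it at -0.20, -0.19 and -0.23 in rat tail collagen against media, bovine collagen and naive cells; in the last, 39.0% of calls were then higher, against 50.8%. The cause of these changes was not tested.

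Libraries with the same number were correlated in their deviations by 0.043 to 0.116 between rat tail collagen and media, 0.029 to 0.443 between bovine collagen and media, -0.013 to 0.094 between rat tail and bovine collagen, 0.047 to 0.149 between rat tail collagen and naive, -0.025 to 0.094 between media and naive and -0.010 to 0.035 between bovine collagen and naive. The labels tie no number to a mouse and no comparison had all 3 above 0.1, a level without a formal basis, so the numbers were not taken as pairs. In the same order 6, 5, 4, 6, 2 and 2 of 6 libraries correlated best with their own number, a hint from the data and not from the design. With the replicate block, Lag3 passed in rat tail collagen against media (0.62, adjusted p = 9.62e-05) and against bovine collagen (0.55, adjusted p = 0.000282), Havcr2 passed against bovine collagen (1.27, adjusted p = 1.03e-05), and 5 of the 10 genes were higher there, against 3. Depth limits Tox2 most, with 30 counts over the 3 bovine collagen libraries.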

Other observations

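Markers of other cells were summed in each library. Of the CD4+ and regulatory T cell markers, Zbtb7b, the factor that directs CD4+ lineage choice, was at 59.0, 53.5 and 48.7 CPM in rat tail collagen, at 33.0, 29.8 and 22.8 CPM in bovine collagen, at 33.4, 26.7 and 19.2 CPM in media and at 9.50, 5.08 and 4.74 CPM in naive cells. Library 1 was thus the highest of each group, as for Havcr2 and Lag3, and Zbtb7b was among the 3 genes closest to Havcr2 in pattern (r = 0.979 over 12 libraries). Against media it was higher in rat tail collagen (log2 fold change 1.04, adjusted p = 0.000473 by edgeR's quasi-likelihood test), a call lost with GC and length offsets (0.27, adjusted p = 0.204). Foxp3 stood at 3.58, 4.04 and 19.2 CPM in rat tail collagen, at 0.535, 0.888 and 4.43 CPM in bovine collagen, at 0.498, 0.904 and 4.31 CPM in media and at 4.22, 2.36 and 2.52 CPM in naive cells, with library 3 the highest of each day 4 group, as for Btla. Rat tail collagen and media overlapped in Foxp3 (adjusted p = 0.132).

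The 5 genes of an early activation list (Cd69, Cd44, Il2ra, Gzmb and Mki67) summed to 2852 to 3510 CPM in rat tail collagen, 3030 to 3117 CPM in bovine collagen, 2703 to 3037 CPM in media and 303 to 319 CPM in naive cells. These sums hide changes in both directions between rat tail collagen and media. Il2ra (log2 fold change 1.44) and Gzmb (1.27) were higher, Cd69 (-0.97) and Mki67 (-0.58) were lower, and Cd44 (-0.27) did not pass. Cd69 was also lower in media than in naive cells (-1.51).

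A myeloid list of 9 genes summed to 25.3 to 32.2 CPM in rat tail collagen, 24.1 to 43.8 CPM in bovine collagen, 23.6 to 43.3 CPM in media and 45.2 to 146 CPM in naive cells, with S100a8 without counts in the 3 day 4 groups. A list of natural killer and gamma delta T cell genes, 6 of them in the table, summed to 20.0 to 33.2, 17.4 to 23.8, 17.2 to 26.1 and 35.6 to 61.7 CPM in the same groups, a stromal list of 7 genes to 72.9 to 80.5, 126 to 145, 132 to 150.1 and 146 to 170.5 CPM, and a red cell and platelet list of 6 genes to 3.04 to 4.33, 3.35 to 4.70, 2.94 to 4.27 and 5.03 to 17.6 CPM. Sums again hide changes between rat tail collagen and media, where 29.7% of all genes were higher and 28.7% lower. Of the 5 myeloid genes tested there, Cd68 (log2 fold change 1.58), Cd14 (3.25) and Fcer1g (1.02) were higher, and Itgax (-2.13) and Itgam (-1.49) lower. Of the 4 natural killer and gamma delta genes tested, Klrb1c was higher (4.71) and Trdc lower (-0.62), and Klra8 and Klre1 did not pass. The stromal sum was mostly Pecam1, which T cells also express, at 69.9 CPM in rat tail collagen and 139 CPM in media. The other 3 stromal genes tested were higher in rat tail collagen, Col1a1 at 4.28 CPM there and 0.317 CPM in media (log2 fold change 3.76), Fn1 at 1.71 and 0.164 CPM (3.37) and Pdgfrb at 1.17 and 0.513 CPM (1.17). Pdgfrb did not pass without the 3 libraries of highest ribosomal RNA share (0.95), which leaves 1 rat tail collagen library. A B cell list of 7 genes summed to 710 to 1027 CPM in rat tail collagen and 913 to 1078 CPM in bovine collagen. Its sum was 922 to 1036 CPM in media and 429 to 488 CPM in naive cells. Most of it was Ighm, at means of 854, 960, 971 and 434 CPM in the same groups. Of 6 B cell genes tested in media against naive cells, 4 were lower and 1 (Ighm) higher. Of all genes 29.2% were lower and 31.6% higher there. The part of these levels in the results was not tested.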
